A study of Mus musculus with 8 samples.

Results

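The transcripts described here are those of the enzymes and receptors of prostaglandins and leukotrienes, in astrocyte cultures from Spp1 knockout and wild-type mice. They were chosen by gene name: prostaglandin synthases, reductases and receptors, the prostaglandin dehydrogenase Hpgd, lipoxygenases with their partner proteins, leukotriene synthases and receptors, and phospholipases A2. Of 3624 genes in the authors' deposited table of changed genes, 19 carried such a name. The table lists only genes past the authors' limits, so the values that chose the members are the values given below, and no test of them is added. The mouse annotation holds 57 genes with such names, 54 of them protein-coding, so 38 were not listed.

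Cultures were grown from retinas and optic nerves of mice at postnatal day 1 to 3, in DMEM/F12 supplemented with 10% FBS (fetal bovine serum), and total RNA was sequenced. The wild-type group was 4 samples of strain C57BL/6, and the knockout group was 4 samples of strain B6.129S6(Cg)-Spp1tm1Blh/J with genotype Spp1-/-. The deleted gene encodes osteopontin, a secreted matrix protein and cytokine, and the deletion is present in every cell, not in astrocytes alone. The name of the knockout strain records a 129 origin of the mutated chromosome segment, and a difference carried with that segment cannot be told apart from the deletion. The values come from a comparison of the groups without values per sample, so sample depth is unknown and the deposited standard errors carry the precision.

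Prostaglandins and leukotrienes are short-lived lipid signals made from arachidonic acid, which phospholipases A2 release from membranes. Cyclooxygenases turn it into prostaglandin H, from which separate terminal synthases make prostaglandins D and E, prostacyclin and thromboxane. 5-lipoxygenase with its activating protein makes leukotriene A, which Ltc4s and Lta4h convert further. Each product acts on its own G protein-coupled receptors, and in the brain the pathway is known from microglia, astrocytes, meninges and vessels.

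Most of the listed eicosanoid genes were higher in the knockout. Of the 19, 17 were higher and 2, Ptgis and Ptges2, were lower in the authors' deposited table. Of the 57 annotated genes, 29.8% were listed higher and 3.51% lower. Over all genes, 12.0% of an estimated 16644 tested were listed higher and 9.81% lower, and 21.8% were listed in either direction. How many of the 57 were tested is not known, so these shares do not have the same denominator. Among listed genes alone 89.5% of the members were higher, against a background of 54.9% of all 3624, and 10.5% were lower, against 45.1%. The members' median log2 fold change in the authors' deposited table was 1.67, against 0.66 over all listed genes. These counts describe a set chosen from the same comparison.

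Prostaglandin D carried the largest changes. In the authors' deposited table Ptgdr, a receptor for prostaglandin D that raises cyclic AMP, had a log2 fold change of 6.14 with a standard error of 0.33, the 11th largest of 1991 rises. Its implied mean, in normalized counts, was 6.23 in wild-type and 439 in knockout samples, so its fold change rests on a low wild-type count. An implied mean is the group mean that the deposited overall mean and fold change give together when the groups are of equal size. Ptgds, the lipocalin-type prostaglandin D synthase, which is secreted and also carries lipophilic molecules, stood at 5.68 with standard error 0.59 in the authors' deposited table. Its implied mean was 84.0 in wild-type and 4302 in knockout samples, a 51.2-fold difference with a 95% interval of 23.1 to 113. Hpgds, the hematopoietic prostaglandin D synthase, an enzyme of the glutathione transferase family, rose by 2.07 with standard error 0.23 in the authors' deposited table. Its implied mean was 199 in wild-type and 832 in knockout samples. The enzymes that make prostaglandin D and 1 receptor for it were therefore all listed higher, while the other receptor, Ptgdr2, was not listed.

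**Figure D1:**
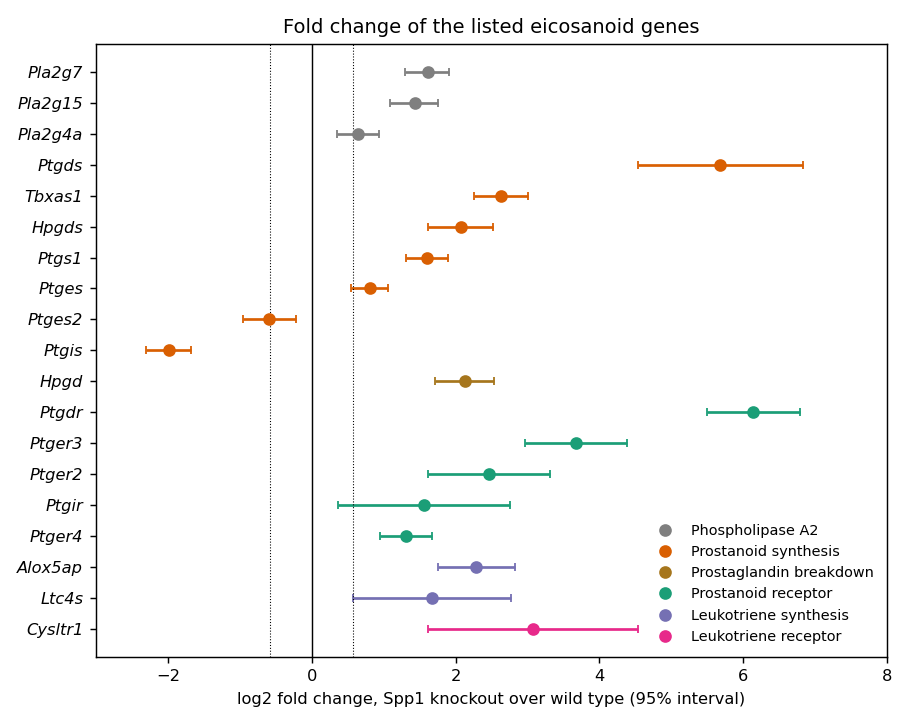
Log2 fold change of knockout over wild type for each of the 19 listed genes, from the authors' deposited table, with 95% intervals as bars and colours for the role of the gene. Dotted lines mark the smallest listed change of 0.58 on either side of 0; Ptgdr at 6.14 and Ptgds at 5.68 stand to the right of the rest, and Ptgis at -1.99 and Ptges2 at -0.59 lie left of 0.

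The start regions of these 3 prostaglandin D genes, all listed higher, are shown so that the windows can be compared letter by letter. Whether the 3 genes vary together between samples is not known. Ptgs1, which feeds them, is shown with them. Each window runs from 250 bases before to 50 bases after an annotated transcript start, 5′ to 3′ on the strand of the gene, from RefSeq on GRCm38.p6. The Ptgds window is chr2:25469700-25469999 on the minus strand, that of Ptgdr chr14:44859326-44859625 on the minus strand, that of Hpgds chr6:65144681-65144980 on the minus strand and that of Ptgs1 chr2:36230176-36230475 on the plus strand. Capitals mark matches to the motifs that were searched.
Ptgds: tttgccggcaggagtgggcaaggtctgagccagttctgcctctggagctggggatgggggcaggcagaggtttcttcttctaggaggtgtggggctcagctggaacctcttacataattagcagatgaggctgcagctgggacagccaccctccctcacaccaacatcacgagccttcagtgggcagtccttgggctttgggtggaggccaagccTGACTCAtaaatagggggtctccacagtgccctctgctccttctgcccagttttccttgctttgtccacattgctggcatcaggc
Ptgdr: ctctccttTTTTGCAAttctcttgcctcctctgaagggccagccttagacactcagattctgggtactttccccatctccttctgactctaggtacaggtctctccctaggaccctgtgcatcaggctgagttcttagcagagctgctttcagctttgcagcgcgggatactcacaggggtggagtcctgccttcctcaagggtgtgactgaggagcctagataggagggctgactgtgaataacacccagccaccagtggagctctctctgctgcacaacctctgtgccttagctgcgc
Hpgds: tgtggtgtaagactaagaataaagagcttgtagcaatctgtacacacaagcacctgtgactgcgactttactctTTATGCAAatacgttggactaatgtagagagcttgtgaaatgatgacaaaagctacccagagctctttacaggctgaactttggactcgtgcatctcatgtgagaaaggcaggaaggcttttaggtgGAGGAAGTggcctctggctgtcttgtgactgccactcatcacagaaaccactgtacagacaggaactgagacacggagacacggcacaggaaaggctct
Ptgs1: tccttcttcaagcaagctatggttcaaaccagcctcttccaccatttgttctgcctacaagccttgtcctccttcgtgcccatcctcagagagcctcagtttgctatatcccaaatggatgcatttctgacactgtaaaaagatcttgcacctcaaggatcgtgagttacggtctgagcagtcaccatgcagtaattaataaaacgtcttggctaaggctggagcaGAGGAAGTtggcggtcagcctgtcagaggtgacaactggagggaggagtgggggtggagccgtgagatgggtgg

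The motifs were searched on both strands in 17 windows of 16 members matched by symbol (not Alox5ap, Cysltr1 and Ptgis), beside 32851 windows of all genes. GAGGAAGT, a form of the site read by the myeloid factor PU.1, was in the windows of Hpgds, 49 bases before the start, and of Ptgs1, 24 bases before it. It was in 3.20% of all windows. TTGCNNAA, a loose C/EBP site in which N is any base, was in the windows of Hpgds, Ptgdr and Ptger2 and in 10.8% of all windows. TTGCGCAA, the strict form contained in TTGCNNAA, was in 0 member windows and 0.183% of all. TGACTCA, an AP-1 site, was in the Ptgds window, 35 bases before the start, and in 5.20% of all windows. GGGCGG was in the windows of 7 members, CCAAT of 4, TATAAA of 3 and CACGTG of 1, against 35.7%, 37.4%, 13.6% and 7.15% of all windows. TGACGTCA, a cyclic AMP response element, and an NF-kappaB site were in 0 member windows, against 1.79% and 0.155% of all. A match describes the letters of the window and does not show binding.

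The cyclooxygenase step moved by less. Ptgs1, the constitutive cyclooxygenase, rose by 1.60 with standard error 0.15 in the authors' deposited table, from an implied mean of 326 to 991. Ptgs2, the inducible cyclooxygenase, was not listed, which is not read as no change: an unlisted gene may have missed either of the authors' limits or may not have been tested.

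The other terminal synthases split. Tbxas1, which makes thromboxane, rose by 2.63 with standard error 0.19 in the authors' deposited table, from an implied mean of 186 to 1156. Ptges, the inducible microsomal prostaglandin E synthase, rose by 0.81 with standard error 0.13 in the authors' deposited table, from 730 to 1277. Ptges2, another prostaglandin E synthase, fell by 0.59 with standard error 0.19 in the same table, from an implied mean of 619 to 411. Ptgis, the prostacyclin synthase, fell by 1.99 with standard error 0.16 in the authors' deposited table, a 3.97-fold lower level with a 95% interval of 3.19 to 4.93. Its implied mean was 741 in wild-type and 187 in knockout samples. Ptgis thus had the only fall of more than 1 on the log2 scale among the members. Ptges3 was not listed.

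Set per kilobase of the longest annotated transcript, the make-up of the listed terminal synthases differed between the groups. In wild type the prostacyclin synthase Ptgis made up 42.3% of their summed implied level, the prostaglandin E synthases Ptges and Ptges2 39.0%, the prostaglandin D synthases Ptgds and Hpgds 13.8% and Tbxas1 4.91%. In the knockout the prostaglandin D synthases made up 81.7%, the prostaglandin E synthases 10.2%, Tbxas1 5.99% and Ptgis 2.10%. The summed level per kilobase was 831 in wild-type and 4231 in knockout samples. Ptgds decides most of this: without it the summed level was 768 and 989, and the share of Hpgds went from 6.65% to 21.6%. Without Ptgds in the sum the prostaglandin E synthases went from 42.2% to 43.8%, so their lower share in the knockout was not present without that gene. Ptgis went from 45.8% to 8.97% and Tbxas1 from 5.31% to 25.6%. With the fold change of Ptgds moved to its lower or upper 95% bound and its overall mean held, the wild-type share of the prostaglandin D synthases was 20.8% or 10.0%, and the knockout share 81.4% or 81.8%. These bounds leave out the error of the overall means and of the other genes. Ptges3, which was not listed, has no value and is left out of these sums, so the shares hold for the listed synthases only. The shares are of transcripts and say nothing of enzyme activity.

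**Figure D2:**
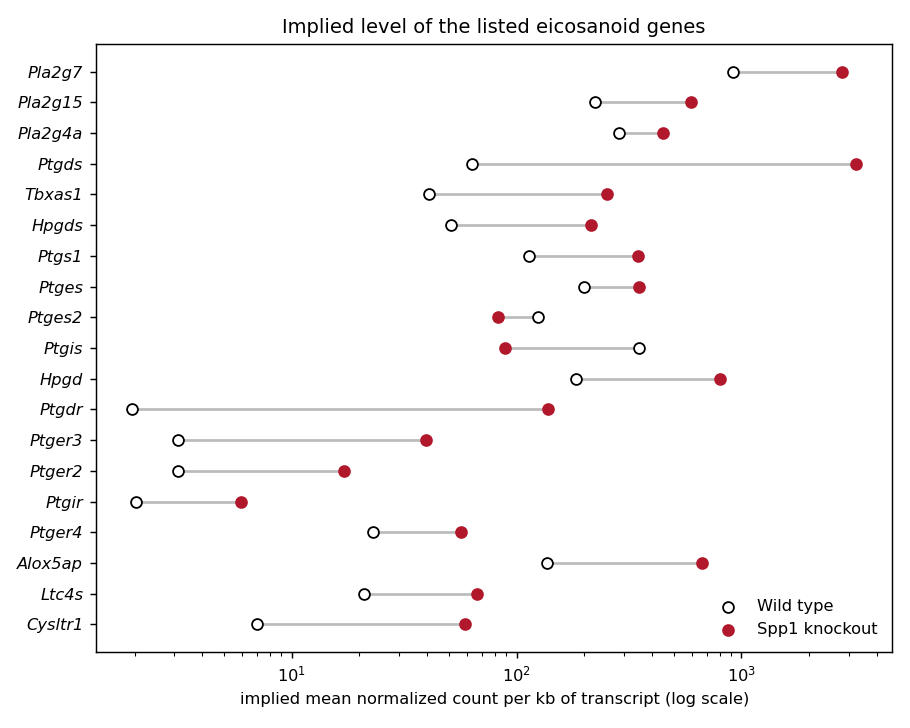
Implied mean normalized count per kilobase of the longest transcript, on a log axis, in wild type (open) and knockout (filled) for each listed gene. Ptgds moved from 63.3 to 3242 and became the highest of the 19 in the knockout, while Ptgis, second in wild type at 352, stood at 88.7.

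Breakdown of prostaglandins was represented by Hpgd, the dehydrogenase that inactivates prostaglandins E and F. Hpgd rose by 2.13 with standard error 0.21 in the authors' deposited table, from an implied mean of 308 to 1351. The reductases Ptgr1 and Ptgr2, which act on its products, were not listed.

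All 5 listed prostanoid receptors were higher, of 8 annotated. Over all genes 12.0% of those tested were listed higher, and 54.9% of those listed were higher. How many of the 8 were tested is not known. Ptger3, a prostaglandin E receptor that lowers cyclic AMP, rose by 3.67 with standard error 0.36 in the authors' deposited table, from an implied mean of 11.2 to 142. Ptger2 and Ptger4, the prostaglandin E receptors that raise cyclic AMP, rose by 2.46 and 1.31 with standard errors of 0.43 and 0.18 in the authors' deposited table. Their implied means went from 11.5 to 63.0 for Ptger2 and from 86.5 to 215 for Ptger4. Ptgir, the prostacyclin receptor, rose by 1.56 with standard error 0.61 in the authors' deposited table, from an implied mean of 6.70 to 19.7. Its 95% interval, 0.37 to 2.75, reached below the smallest listed change, so the size of this rise is poorly fixed. Ptger1 and Ptgfr, receptors for prostaglandins E and F, and Ptgdr2 were not listed.

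Per kilobase, the prostaglandin E receptors made up 88.0% of the summed level of the listed prostanoid receptors in wild type and 44.1% in the knockout. Ptgdr went from 5.89% to 53.5%, and Ptgir from 6.11% to 2.32%. The order of the levels changed with it. In wild type Ptger4 was the highest of the 5 at 22.9 per kilobase, with Ptger3, Ptger2, Ptgir and Ptgdr between 1.95 and 3.12. In the knockout Ptgdr was the highest at 138, followed by Ptger4 at 56.9 and Ptger3 at 39.6. Whether neighbours in these orders differ cannot be told without values per sample. The wild-type shares rest on low implied means for Ptgdr, Ptgir, Ptger3 and Ptger2, of 6.23, 6.70, 11.2 and 11.5. Ptger1, Ptgfr and Ptgdr2, not listed, are left out of the sums.

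Genes that make or sense leukotrienes were listed in part, and all 3 listed were higher. They were 2 of 3 annotated synthesis genes and 1 of 4 annotated receptors, beside 0 of 7 lipoxygenases. Over all tested genes 21.8% were listed in either direction, and how many of these annotated genes were tested is not known. Alox5ap, the protein that presents arachidonic acid to 5-lipoxygenase, rose by 2.29 with standard error 0.27 in the authors' deposited table, from an implied mean of 170 to 831. Ltc4s, the leukotriene C synthase, rose by 1.67 with standard error 0.56 in the same table, and its implied means of 15.0 and 47.7 were low. Cysltr1, a receptor for cysteinyl leukotrienes, rose by 3.07 with standard error 0.75 in the authors' deposited table, from 36.2 to 304. The enzyme that Alox5ap serves, Alox5, was not listed, nor were the other 6 annotated lipoxygenases (Alox12, Alox12b, Alox12e, Alox15, Alox8, Aloxe3), Lta4h, or the receptors Cysltr2, Ltb4r1 and Ltb4r2.

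Of 23 annotated genes named as phospholipases A2, 3 were listed, all higher. That is 13.0% of the annotated genes, near the 12.0% of all tested genes that were listed higher. Of the 23, 20 are protein-coding, and how many were tested is not known, so the denominators differ. Pla2g4a, the cytosolic enzyme that releases arachidonic acid for this pathway, had the smallest rise of all members, 0.64 with standard error 0.15 in the authors' deposited table, from an implied mean of 989 to 1542. Pla2g7, a secreted enzyme that breaks down platelet-activating factor, rose by 1.61 with standard error 0.16 in the authors' deposited table. At an implied 1933 in wild-type and 5882 in knockout samples it had the highest mean count of the members. Pla2g15, a phospholipase of lysosomes, rose by 1.43 with standard error 0.17 in the authors' deposited table, from 602 to 1621. The names of Pla2g7 and Pla2g15 place them here, although neither is known mainly as a source of arachidonic acid for prostaglandins.

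The members differed in how well their changes were fixed. The 95% interval lay wholly beyond the smallest listed change for 14 of the 19 (73.7%), against 53.2% of all listed genes. It did not for Ptges2, Pla2g4a, Ptges, Ltc4s and Ptgir. Just inside the authors' limits were Ptges2 and Pla2g4a by fold change, and Ptgir and Ltc4s by the adjusted p of the authors' Wald test, 0.036 and 0.013 in the authors' deposited table. Genes just outside the limits were not analysed here.

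Ptgds and Cysltr1 had wide errors for their level. The standard error of 0.59 for Ptgds in the authors' deposited table was larger than that of 356 of 357 listed genes with a mean count within 1.5-fold of it, whose median was 0.17. For Cysltr1 the error of 0.75 was larger than that of 564 of 566 such genes, with a median of 0.26. Counting alone would give errors of about 0.079 and 0.13. Under a negative-binomial model with equal depth, these errors correspond to a coefficient of variation between samples of about 56.9% for Ptgds and 72.3% for Cysltr1, against a median of 21.8% over all listed genes and 17.9% over the members. Which samples differ is not known from the table. Ptgdr, with a larger fold change than Ptgds, had an error of 0.33 in the authors' deposited table, close to the 0.29 that its low wild-type count gives by counting alone. Ptger4 was the most precise for its level, with an error below that of all but 10 of 536 similar genes.

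**Figure D3:**
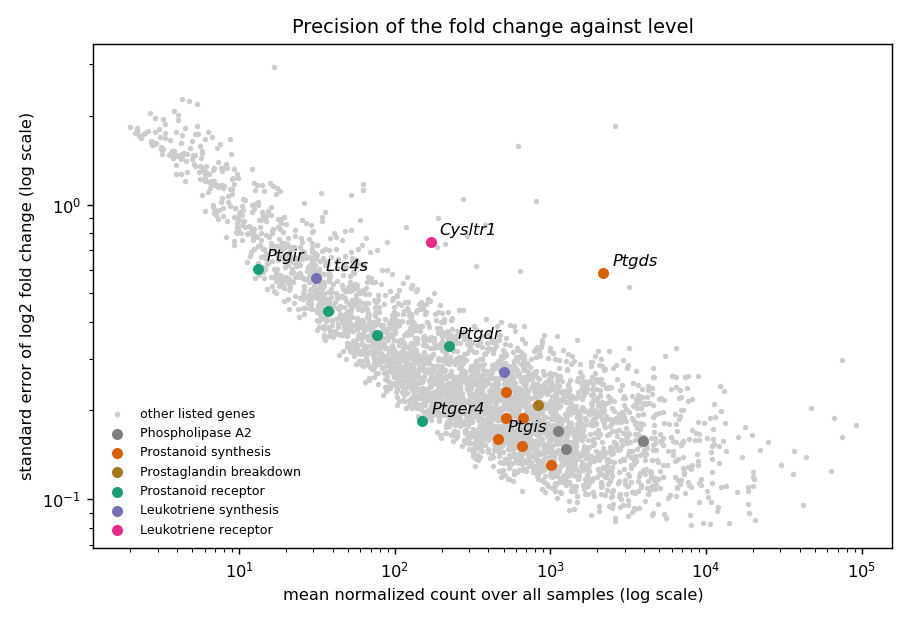
Standard error of the log2 fold change against the mean normalized count, both on log axes and from the authors' deposited table, for all 3624 listed genes (grey) and the 19 members (coloured by role). Ptgds, at a mean count of 2193 and an error of 0.59, and Cysltr1, at 170 and 0.75, lie above the band of genes of like level.

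Markers of other cell types moved beside these genes. For each list of markers the background was 21.8% of tested genes listed. Of all listed genes 54.9% were higher and 45.1% lower. Of 29 microglia and macrophage markers 27 were listed and all 27 were higher, with a median log2 fold change of 2.21 and a range of 0.91 to 4.36 in the authors' deposited table. Their summed implied mean was 44909 in wild-type and 210097 in knockout samples, and Tmem119 and Cd163 were not listed. Mrc1, the mannose receptor, Mpeg1, a perforin-like protein, and Itgam, an integrin, had the smallest adjusted p of this list, and the authors' deposited table gave them log2 fold changes of 4.36, 2.30 and 2.7. The changes of 13 of the 19 members lay inside the range of these markers. The range is wide, and the share of all listed genes inside it was not computed, so this count has no background. Cysltr1 lay above 24 of the 27 markers, Tbxas1 and Ptger2 above 20, Alox5ap above 17, Hpgd above 12 and Hpgds above 9. Ltc4s and Pla2g7 lay above 4, Ptgs1, Ptgir and Pla2g15 above 3 and Ptger4 above 1. Ptges, Pla2g4a, Ptges2 and Ptgis lay above 0 of the markers. The changes of Ptgdr and Ptgds lay above all 27 markers, and that of Ptger3 above 26 of them. The part of macrophages in these results was not tested, and in bulk RNA more cells of a type and more RNA per cell cannot be told apart.

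Meningeal and fibroblast markers, from tissue where Ptgds is known to be abundant, went both ways. Of 36 such marker names, 35 of them in the annotation, 22 were listed, 17 higher and 5 lower. The listed markers had a median of 1.24 and a range of -2.16 to 6.73 in the authors' deposited table. Their summed implied mean was 180979 in wild-type and 150701 in knockout samples, a sum in which Igfbp2 alone went from 122219 to 27349. Cldn11, a tight junction gene, Igf2, a growth factor, and Dcn, a matrix proteoglycan, stood at 2.93, 3.38 and 2.87 in the authors' deposited table, with Ccn3, Fmod and Igfbp2 at -1.44, -1.30 and -2.16. The range of this list includes Ptgds and Ptgdr, and 1 of its 22 listed members, the transporter gene Slc6a13 with an implied wild-type mean of 0.661, had a larger change than either. Col1a1, Col1a2 and Tbx18 were among those not listed. The part of meningeal cells in these results was not tested.

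Mature oligodendrocytes are another known source of Ptgds. Of 20 markers of the oligodendrocyte lineage, precursors included, 15 were listed, each of them lower, with a median of -3.11 in the authors' deposited table, among them Mbp, a myelin protein gene, at -2.46 and Cspg4, a proteoglycan of precursors, at -2.33. Their summed implied mean went from 26841 to 7006, of which the lineage and precursor genes Olig1, Olig2 and Cspg4 made up 21544 and 6295. Mast cells also use Hpgds and Ltc4s. Of 18 mast cell, basophil and eosinophil markers 5 were listed, 3 higher and 2 lower, where 21.8% of all tested genes were listed. Kit, Ccr3 and Hdc stood at 4.01, 3.83 and 1.37 in the authors' deposited table, and Il1rl1 and Gata2 at -1.56 and -1.07. The implied wild-type mean of Ccr3 was 1.36, so its fold change rests on counts near 0. The mast cell proteases Cpa3, Cma1, Mcpt4, Tpsb2 and Tpsab1 and the IgE receptor genes Fcer1a and Ms4a2 were not listed. Of 23 astrocyte markers 8 were listed, 5 higher and 3 lower. Gjb6, a connexin gene that is also on the meningeal and fibroblast list, stood at 4.28 in the authors' deposited table. Aldoc, an aldolase, stood at 1.18 and Aqp4, the water channel, at 1.15 in the same table. Ndrg2 stood at 0.91 and Gfap, the astrocyte filament gene, at 0.66 there. Pax2, a transcription factor of optic nerve astrocytes, S100b, a calcium-binding protein, and Fabp7, a fatty acid carrier, stood at -0.98, -1.82 and -1.23 in that table. Gfap had an implied mean of 58314 in wild-type and 91923 in knockout samples, so its transcript was abundant in the cultures of either genotype. Slc1a2, Slc1a3, Aldh1l1, Gja1, Sox9 and Glul were among the astrocyte markers not listed.

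**Figure D4:**
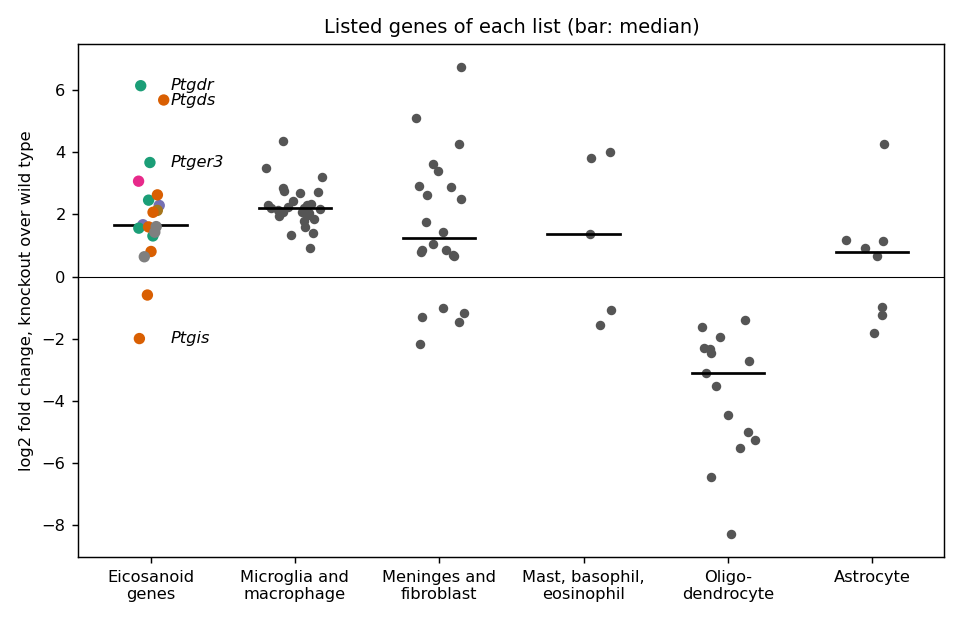
Log2 fold change, from the authors' deposited table, of the 19 eicosanoid genes (coloured by role) and of the listed members of 5 marker lists (grey), with the median of each list as a bar and horizontal scatter added for legibility. The medians are 1.67 for the eicosanoid genes, 2.21 for microglia and macrophage, 1.24 for meninges and fibroblast, 1.37 for mast cell, basophil and eosinophil, -3.11 for oligodendrocyte and 0.78 for astrocyte markers.

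Sex may differ between the groups. The Y-linked genes Ddx3y, Eif2s3y, Uty and Kdm5d were all higher in the knockout, by 5.91 to 13.26 in the authors' deposited table, and the labels give no sex. Sex and genotype therefore cannot be told apart for any gene here. Spp1 itself fell by 5.90 with standard error 0.11 in the authors' deposited table. That value sets the direction of the fold change, which the table does not state.

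Other genes of the pathway, outside the naming rule, went in either direction. Of 38 gene names for transport, release and breakdown of eicosanoids, 35 of them in the annotation, 12 were listed, 8 higher and 4 lower. Over all genes, 21.8% of those tested were listed, and 54.9% of those listed were higher. Cyp1b1, a cytochrome P450, Cyp4f18, a cytochrome P450 that oxidizes leukotriene B, and Dpep2, a dipeptidase that acts on leukotriene D, rose by 1.05, 2.97 and 2.75 in the authors' deposited table. Slco2a1, the prostaglandin uptake transporter, fell by 1.02, Akr1c14, a hydroxysteroid dehydrogenase, fell by 0.62 and Gstm1, a glutathione transferase, fell by 0.70 in the same table. The uptake transporter and Hpgd, which acts after uptake, thus moved in opposite directions. Abcc4, a prostaglandin exporter, was not listed.

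Of 24 names of other receptors for lipid mediators, 22 of them in the annotation, 9 were listed, 7 higher and 2 lower. The shares over all genes were 21.8% of tested genes listed and 54.9% of listed genes higher. Gpr35, a G protein-coupled receptor of immune cells, Ptafr, the receptor for platelet-activating factor, and S1pr3, a sphingosine phosphate receptor, rose by 3.12, 2.80 and 1.24 in the authors' deposited table. Gpr17, a receptor of oligodendrocyte precursors, fell by 2.28 and Lgr6 fell by 1.48 in that table. The thromboxane receptor Tbxa2r was not listed, although the synthase Tbxas1 rose. Ptafr and Pla2g7, the receptor and the breakdown enzyme of platelet-activating factor, were both higher.

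Of 38 genes of arachidonate supply outside the rule 9 were listed, 6 higher and 3 lower. Of all tested genes 21.8% were listed, and 54.9% of listed genes were higher. Plcg2, a phospholipase C, Lpcat2, an acyltransferase that also makes platelet-activating factor, and Daglb, a diacylglycerol lipase, rose by 1.53, 1.04 and 0.78 in the authors' deposited table. Dagla, the other diacylglycerol lipase, fell by 0.94, Anxa2, an annexin, fell by 0.73 and Plcb1, a phospholipase C, fell by 0.67 in that table. The paired lipases Dagla and Daglb thus went in opposite directions.

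Of 34 genes of cyclic AMP signalling and other effectors of prostanoid receptors 9 were listed, 7 higher and 2 lower. The background was again 21.8% of tested genes listed and 54.9% of listed genes higher. Adcy7 and Adcy5, adenylyl cyclases, and Pde7b, a phosphodiesterase that breaks down cyclic AMP, rose by 1.16, 1.28 and 2.02 in the authors' deposited table. Adcy1, another adenylyl cyclase, fell by 1.94 and Gnai1, an inhibitory G protein subunit, fell by 0.81 in the authors' deposited table. Adenylyl cyclase genes were thus listed in either direction.

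The members are spread over the genome, with 5 on chromosome 2 (Ptgds, Ptges, Ptges2, Ptgs1 and Ptgis). In GRCm38, Ptgds lies at 25466709 to 25470046 on chromosome 2 and Ptgis at 167191805 to 167240604, so the largest rise and the largest fall among the synthases are on the same chromosome but far apart. Alox5ap was the only member on chromosome 5, which carries Spp1, at a distance of 44.8 Mb. Ptgdr, at 44851235 to 44859375 on chromosome 14, and Ptger2 are neighbours 129 kb apart, and both rose; this pair was singled out after its values were seen. Ptges2 lies 7.64 kb from Lcn2, a secreted lipocalin gene that moved the other way, with a log2 fold change of 3.33 in the authors' deposited table against -0.59 for Ptges2. Listed genes within 100 kb of Ptgds were Entpd2 at 1.20, Abca2 at 0.80, Mamdc4 at 2.07 and Edf1 at -0.70 in the authors' deposited table, all far below the change of Ptgds. Near Ptgir were Dact3 at -0.75 and Pnmal1, also lower, near Ptges2 also Dnm1 at -1.23, and near Tbxas1 Kdm7a at 1.25 in the authors' deposited table. Annotated genes on the opposite strand overlap 12 of the 19 members, protein-coding ones Cysltr1, Tbxas1 and Ptger4, and 0 of the overlapping genes were listed. The sources used here do not give whether reads were counted by strand.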

How the data were processed

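Total RNA of 8 samples, 4 of each genotype, was sequenced. Tools named in the submitters' processing notes, without their roles, are CASAVA 1.8, STAR 2.7 and DESeq2 1.30.1, with build GRCm38; annotation, counting and strand are not stated in any source used here. The authors deposited 1 table of 3624 genes with 0 columns of per-sample values, so sample depth is unknown and no test across samples could be made. Per the file headers, it gives a mean normalized count (a signal scaled by the authors), a log2 fold change, its standard error, a Wald statistic (a score) and p-values, raw and adjusted. Every deposited absolute log2 fold change was at least 0.58 and every adjusted p-value at most 0.0499.

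From these were computed 95% intervals, implied group means (equal group sizes), levels per kilobase of the longest GENCODE M21 transcript, and the coefficient of variation implied by the standard error. The number of genes tested, 16644, came from dividing adjusted by raw p-values for the 20 smallest p-values above 0 and multiplying by rank, a method tested on simulated data. A negative Spp1 value set the direction to knockout over wild type. The labels do not say whether samples came from separate cultures, so p-values may measure technical spread only. All listed members are named; of the 11 other lists, those with more than 8 listed members by the 3 smallest adjusted p-values in each direction, and other genes after their values were seen. Genes listed within 100 kb of a member are named as neighbours. Some genes that these rules name are not reported here. Members, lists and tests were chosen with earlier results of these data known. Python 3.11.15 and pandas 2.3.3 were used.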

Additional observations from a re-analysis of the deposited data

How the results depend on the processing

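No paired analysis was possible because the deposited table holds 0 columns of per-sample values; for the same reason leaving out a replicate, another count model and another filter on counts were not run. Of the 17 members higher in the knockout, 15 had a log2 fold change of at least 1, 15 an adjusted p of at most 0.01, 13 a mean normalized count of at least 100 and 13 an interval wholly beyond the smallest listed change. Of the 2 lower members, 1 (Ptgis) passed the limit of 1 and 1 (again Ptgis) had an interval wholly beyond the smallest listed change, while both passed the other limits. Over all listed genes, the share past the limit of 1 and the share with such an interval were smaller than among the members. The shares of all listed genes past the limits on adjusted p and mean count were not computed, so those counts have no background. The members' median log2 fold change of 1.67 became 1.21 as a mean weighted by the inverse squared error, 2.10 without the phospholipases A2 and 1.61 among members with a mean count of at least 100. With the 50 smallest p-values the estimated number of genes tested was 16636. Other choices were added after seeing the data: with merged exon length the share of prostaglandin D synthases was 11.7% in wild-type and 81.9% in knockout samples, and that of Ptgis 41.3% and 2.18%; the shares without Ptgds stand with the main ones. Low counts limit Ptgir, Ltc4s, Ptger2 and Ptger3, whose mean counts were below 100.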

Other observations

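Retinal pigment and ciliary epithelium, another tissue with known Ptgds expression, had 8 listed markers of 18, 4 higher and 4 lower. The background over all genes was 21.8% of tested genes listed and 54.9% of listed genes higher. In the authors' deposited table Aqp1, a water channel, Ttr, the thyroxine carrier of pigment and choroid plexus epithelium, Mitf, a pigment cell transcription factor, and Best1, a chloride channel of pigment epithelium, stood at 4.43, 5.34, 1.28 and 2.04. Opcml, Dct, Trpm1 and Rlbp1 stood at -1.79, -5.30, -1.70 and -0.88 in the same table. Ttr and Dct had an implied mean of 2.03 and 0.198 in their lower group, so these fitted values rest on counts near 0. The visual cycle genes Rpe65, Lrat, Rdh5 and Rgr were not listed.

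Endothelial and mural cell markers had 9 listed of 23, 2 higher and 7 lower, and their median log2 fold change was -0.79. Among all tested genes 21.8% were listed, and 45.1% of all listed genes were lower. Kdr, a receptor for vascular endothelial growth factor, and Cdh5, the endothelial cadherin, rose by 2.08 and 1.11 in the authors' deposited table. Cspg4, a proteoglycan of pericytes and glial precursors, and Esam, an endothelial adhesion molecule, stood at -2.33 and -3.96 in that table. Acta2, the smooth muscle actin, went from an implied mean of 48110 in wild type to 24048. The endothelial genes Pecam1, Tek and Cldn5 and the mural genes Pdgfrb, Rgs5, Kcnj8, Abcc9, Myh11 and Des were among those not listed, and Cspg4 is also on the oligodendrocyte list. Vessels are a known site of Ptgis, the prostacyclin synthase, and the part of vascular cells in its fall was not tested.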
